A study of Homo sapiens with 15 samples.

Results

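Metallothioneins and 2 genes of the same zinc response were followed through each library of a study of flame retardants in human liver cancer cells. They are the metallothioneins MT1A, MT1E, MT1F, MT1G, MT1M, MT1X and MT2A, the zinc sensor MTF1 and the zinc exporter SLC30A1. These 9 genes were chosen by name, and all 9 were found among the 57773 genes listed in the tables. Reads were frequent enough to test 7 of them, within a fit of 12567 genes, while MT1A and MT1M had too few.

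Metallothioneins are small cysteine-rich proteins that bind zinc and copper and take up toxic metals such as cadmium. MTF1, a zinc finger transcription factor, binds DNA when free zinc rises and switches on metallothionein genes and SLC30A1 through short motifs called metal response elements. SLC30A1 sits in the plasma membrane and moves zinc out of the cell. Liver is a main site of metallothionein production, and glucocorticoids and oxidative stress can raise these genes as well as metals.

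HepG2 cells, an established line from a human hepatocellular carcinoma, were exposed for 72 h in 5 groups of 3 cultures. The groups received tris(2-chloroethyl) phosphate (TCEP) at 25 µM, TCEP at 250 µM, tris(2-chloroisopropyl) phosphate (TCIPP) at 2.5 µM, TCIPP at 25 µM, or only the solvent of both, 0.1% dimethyl sulfoxide (DMSO). TCIPP is TCEP with an added methyl on each of its chlorinated arms. The labels state that the cultures of a triplicate were seeded, grown, treated and extracted apart, and that stranded poly-A libraries were sequenced. No group was given zinc or another metal by label, so how far these genes can be induced in these cultures was not measured.

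Exon reads per library ran from 5.35 to 26.8 megareads with a median of 8.89. A count of 3 reads corresponded to 0.112 to 0.560 counts per megaread (CPM) by library. The liver identity of the cells was plain in their markers, since albumin (ALB) averaged 5007 reads per kilobase of exon per megaread (RPKM), AFP 453 and HNF4A 35.2. Markers of other cell types were mixed. Of the leukocyte markers, PTPRC had 1 read in all libraries together, while LYZ averaged 2361 and CD68 13.7 RPKM. Of 5 fibroblast and stellate markers, COL1A2 and DCN had 0 reads, COL3A1 1 and COL1A1 264 (0.142 RPKM), while PDGFRB had 3261 (2.44 RPKM). The endothelial markers CDH5 and VWF averaged 0.134 and 0.0802 RPKM. In bulk RNA from 1 cell line, fewer cells with a transcript and less transcript per cell cannot be told apart.

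The 7 metallothionein genes lie within 76.0 kb of chromosome 16 (hg19, 56642111 to 56718108), in the order MT2A, MT1E, MT1M, MT1A, MT1F, MT1G and MT1X. MT1G lies on the minus strand and the others on the plus strand. MT2A spans 56642111 to 56643409, MT1E 56659387 to 56661024, MT1G 56700643 to 56701977 and MT1X 56716336 to 56718108. MTF1 (38275239 to 38325292) and SLC30A1 (211744910 to 211752084) lie on the minus strand of chromosome 1. All reported reads are exon reads of these gene models.

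The motif through which MTF1 acts was looked up in the 250 bases before the RefSeq start of each gene, since it is the DNA feature that is meant to tie these genes together. The windows come from a RefSeq promoter table (GRCh38.p14), which held 4 of the 9 genes, and each was placed on GRCh37 by its unique exact match. They are printed 5′ to 3′ on the strand of the gene, with every match to TGCACNC or TGCGCNC, on either strand, in capitals. MT2A is the most abundant member, MT1X stands at the far end of the cluster, and SLC30A1 is the exporter.
MT2A (chr16:56642246-56642495, plus strand): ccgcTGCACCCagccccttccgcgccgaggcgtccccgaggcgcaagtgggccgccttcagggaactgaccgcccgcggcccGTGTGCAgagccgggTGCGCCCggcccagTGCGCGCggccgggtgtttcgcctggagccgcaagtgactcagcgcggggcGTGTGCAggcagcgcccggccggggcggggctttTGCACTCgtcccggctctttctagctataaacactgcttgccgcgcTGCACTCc
MT1X (chr16:56716132-56716381, plus strand): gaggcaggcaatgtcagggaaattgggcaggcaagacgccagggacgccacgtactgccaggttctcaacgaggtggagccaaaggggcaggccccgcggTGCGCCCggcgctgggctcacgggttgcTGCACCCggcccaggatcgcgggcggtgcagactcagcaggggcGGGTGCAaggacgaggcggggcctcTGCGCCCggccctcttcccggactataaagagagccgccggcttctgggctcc
SLC30A1 (chr1:211752504-211752753, minus strand): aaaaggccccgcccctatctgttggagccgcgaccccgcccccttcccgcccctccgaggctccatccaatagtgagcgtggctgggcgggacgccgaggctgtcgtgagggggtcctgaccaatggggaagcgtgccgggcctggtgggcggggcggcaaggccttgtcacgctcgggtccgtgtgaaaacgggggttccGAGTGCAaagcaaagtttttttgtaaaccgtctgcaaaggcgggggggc
The MT2A window held 7 matches, 5 on its own strand and 2 on the other, from -246 to -2 relative to the start. The MT1X window held 4, SLC30A1 held 1 at -49 to -43 on the other strand, and MTF1 held 0 in these letters. No match overlapped another. The RefSeq starts of MT2A and MT1X lie inside the gene models of the tables, and that of SLC30A1 lies upstream of its model. Of 35116 RefSeq windows of the same length, 24.8% held at least 1 match, 0.370% at least 4 and 0.0313% at least 7. A match is a description of the letters and no evidence of binding.

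**Figure D1:**
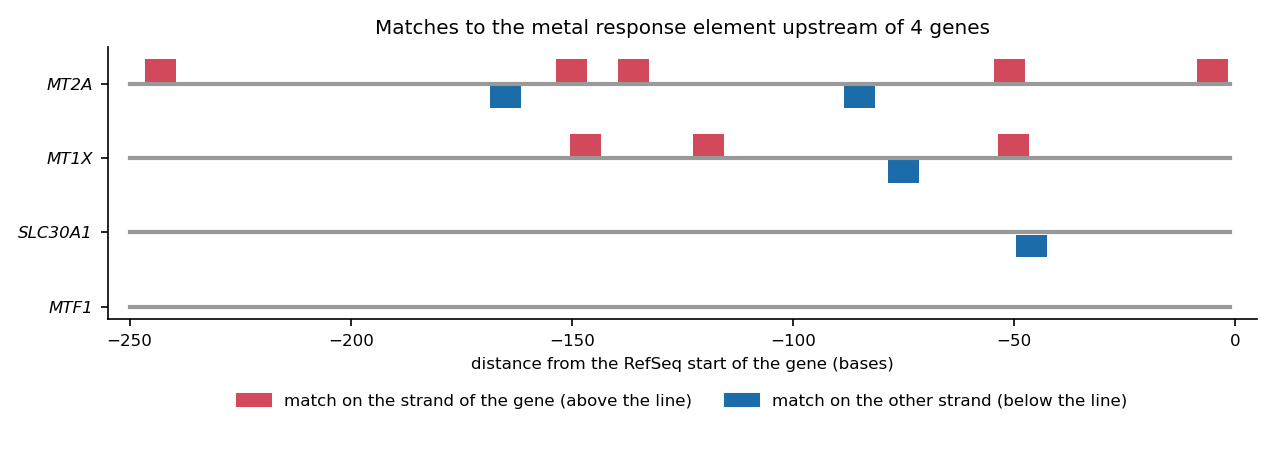
Matches to the metal response element (TGCACNC or TGCGCNC) in the 250 bases upstream of MT2A, MT1X, SLC30A1 and MTF1; the horizontal axis is the distance from the RefSeq start in bases, and boxes above or below a line are on the strand of the gene or on the other strand. The 7 boxes of MT2A spread over the whole window, and MTF1 has none.

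Per length of transcript, MT2A dominated the family. It averaged 85.1 RPKM over the 15 libraries, MT1E 36.5, MT1X 7.63, MT1G 3.09, MT1A 1.67 and MT1F 1.58 RPKM. SLC30A1 stood at 9.29 RPKM and its activator MTF1 at 1.61 RPKM. As a share of all metallothionein exon reads, MT2A took 68.9% ± 2.33 (SD, n = 15) and MT1E 24.0% ± 1.75, so that these 2 genes carried most of the family's RNA in every library. MT1X took 3.99%, MT1G 1.56%, MT1F 1.12% and MT1A 0.422%.

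Several family members were close to silent. MT1M, which the same tables list between MT1E and MT1A, had 1 read in 1 library (TCEP at 25 µM, replicate 1) and 0 in the other 14. MT1A had 122 reads in all, from 3 to 34 per library, and its group means ran from 0.648 to 0.856 CPM with overlapping values between all neighbours in that order. A further 13 metallothionein genes and pseudogenes were listed outside the 9, and 12 of these had 0 exon reads in all libraries. For 4 of the 12 the exon length was 0, so reads could not be assigned to them. MT1L had 3 reads. Neither the neuronal form MT3 nor the epithelial form MT4 had a read.

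Near-identical copies limit 1 member. In MT1X only 57.2% of exon reads had a unique place in the genome, against 97.9% in MT1G and at least 99.8% in the other members with more than 1 read. The levels of MT1X therefore include reads that may belong to relatives. MT1X also overlaps RP11-343H19.2, a gene model with 7 reads in all libraries.

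MT2A, the main metallothionein of most human cells, averaged 103 ± 20.9 CPM in the DMSO libraries (SD, n = 3). TCEP libraries averaged 125.3 ± 31.9 CPM at the low and 115.5 ± 26.1 at the high concentration, and TCIPP libraries 148 ± 46.3 and 113 ± 26.8. In replicates 1, 2 and 3 it read 96.2, 127 and 86.4 CPM with DMSO, 90.0, 152 and 134 with TCEP at 25 µM, and 90.8, 143 and 113 with TCEP at 250 µM. With TCIPP it read 101, 194 and 149 CPM at 2.5 µM and 87.5, 141 and 111 at 25 µM. The highest library of every group was replicate 2, and the groups overlapped. Against DMSO the log2 fold change of MT2A was 0.53 at 2.5 µM TCIPP (95% interval 0.04 to 1.02) with an edgeR adjusted p of 0.325. In the other 3 exposures it was between 0.13 and 0.29, with every interval spanning 0.

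MT1E, the second most abundant form, was likewise highest in replicate 2 of every group. Its values in replicates 1, 2 and 3 were 32.5, 47.3 and 35.0 CPM in the DMSO group, 34.1, 57.2 and 47.7 in the group on 25 µM TCEP and 31.9, 49.5 and 40.5 in that on 250 µM. On TCIPP it read 36.1, 60.6 and 54.0 CPM at 2.5 µM and 24.1, 41.6 and 38.4 at 25 µM. Replicate 1 was the lowest and replicate 2 the highest in all 5 groups. The group means overlapped in their libraries, from 34.7 ± 9.31 CPM with TCIPP at 25 µM to 50.2 ± 12.7 with TCIPP at 2.5 µM. The log2 fold change against DMSO was 0.41 ± 0.224 (SE) at 2.5 µM TCIPP (edgeR adjusted p = 0.442).

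MT1G, an inducible form with 12 to 76 exon reads per library, was the member in which DMSO stood apart. It read 4.86, 3.59 and 3.56 CPM with DMSO. The 12 treated libraries ran from 1.66 CPM (TCIPP at 25 µM, replicate 3) to 3.39 CPM (TCIPP at 25 µM, replicate 1), all below the 3 DMSO libraries. The log2 fold changes against DMSO were -0.91 on low TCEP, -0.85 on high TCEP, -0.93 on low TCIPP and -0.68 on high TCIPP. Their edgeR adjusted p-values were 0.136, 0.757, 0.11 and 0.661. These 4 comparisons share the DMSO libraries, so they are not independent.

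Because of that pattern, all treated groups were set against DMSO in 1 contrast, chosen after the values had been seen. The difference in MT1G was -0.84 ± 0.188 on the log2 scale (SE, mean 2.17 against 4.00 CPM). Its unadjusted p was 0.00034 and its edgeR adjusted p 0.142, so it did not pass. Groups that do not overlap in this contrast were found in 0.828% of all genes tested, and MT1G was the only 1 of 7 members among them. The contrast was formed because of that non-overlap in MT1G, so neither it nor the unadjusted p is separate support. The contrast called 0 members and 0 genes in all (0.0%) with edgeR, where 1 member and 1342 genes had an unadjusted p under 0.05. With limma-voom it called 0 members and 0 genes, and with DESeq2 0 members and 73 genes. DESeq2 gave no adjusted p for 5360 of the 12567 genes in this contrast, and such genes count as not called.

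MT1X and MT1F, both minor forms, showed no called difference either. MT1X with TCIPP at 25 µM (5.54, 5.08 and 6.21 CPM) lay below all DMSO libraries (8.83, 7.18 and 7.06), with a log2 fold change of -0.42 (interval -0.97 to 0.12). MT1F had 5 to 65 reads per library and spread widely, from 0.675 to 3.05 CPM. Its fold change of -0.91 at 25 µM TCEP had an interval from -1.76 to -0.07 and overlapping libraries.

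MTF1 hardly varied. Over the 15 libraries it ran from 12.2 to 17.3 CPM with a mean of 14.1, and its group means lay between 13.8 ± 0.318 (TCEP at 250 µM) and 14.6 ± 2.41 CPM (TCIPP at 25 µM). Its log2 fold changes against DMSO were from -0.03 to 0.08, and their intervals lay within -0.29 to 0.34.

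SLC30A1, the exporter under MTF1 control, had its lowest group means at the low concentration of each compound. With DMSO it read 56.5, 55.8 and 66.6 CPM in replicates 1, 2 and 3. With TCEP it read 49.6, 46.7 and 53.4 CPM at 25 µM and 64.1, 53.1 and 63.8 at 250 µM. With TCIPP it read 47.6, 40.7 and 52.5 CPM at 2.5 µM and 61.7, 52.3 and 70.6 at 25 µM. All libraries of both low concentrations lay below all DMSO libraries, and those of the high concentrations overlapped with DMSO. The log2 fold changes against DMSO were -0.26 ± 0.115 (SE, edgeR adjusted p = 0.287) with TCEP at 25 µM and -0.34 ± 0.116 (0.184) with TCIPP at 2.5 µM. At 250 µM TCEP and 25 µM TCIPP they were 0.01 and 0.05.

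**Figure D2:**
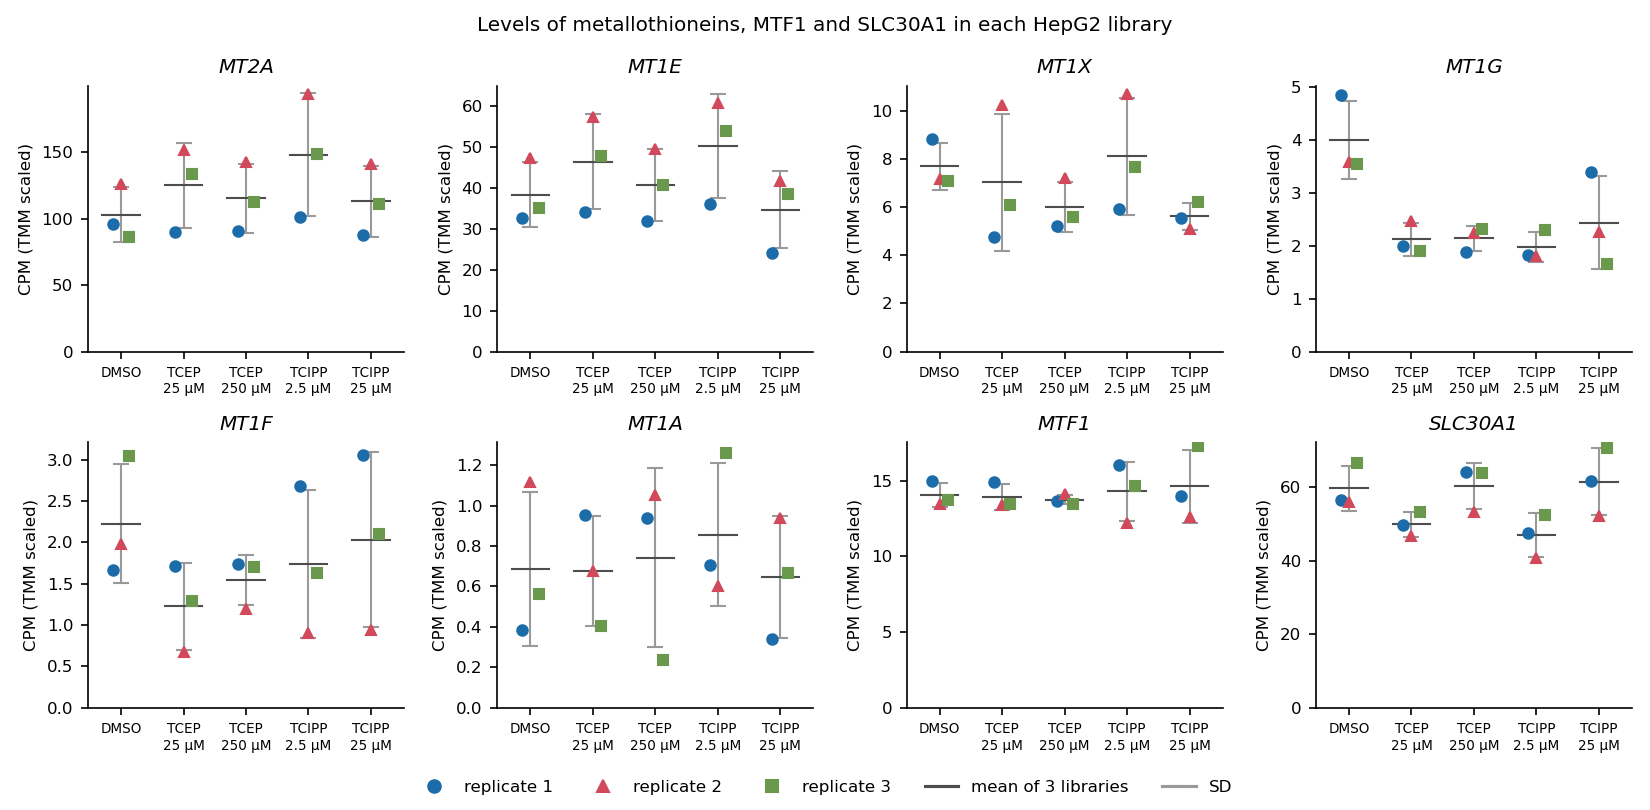
TMM-scaled CPM of 8 members in each library (vertical axes start at 0), by group along the horizontal axis; points are libraries with the replicate number as colour and shape, the dark bar is the mean of 3 libraries and the grey bar the SD. MT2A and MT1E are highest in replicate 2 of every group, all 12 treated libraries of MT1G lie below DMSO, and SLC30A1 is lowest in replicate 2 of every group.

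Counted over the members, the fit on groups alone called 0 of 7 against DMSO by edgeR's adjusted p under 0.05 in each of 4 comparisons. The same rule called 0.0% of all genes with TCEP at 250 µM, 0.0% with TCEP at 25 µM, 0.00796% (1 gene) with TCIPP at 25 µM and 0.0955% (12 genes) with TCIPP at 2.5 µM. So few calls over all genes leave the members' count of 0 near the background. An unadjusted p under 0.05 was reached by 1, 3, 1 and 3 members and by 653, 1915, 799 and 1743 genes in these comparisons. Limma-voom called 0, 4, 1 and 104 genes and DESeq2 17, 155, 34 and 232, and both called 0 members in each. The test for any difference among the 5 groups called 0 members and 12 genes (0.0955%), with unadjusted p under 0.05 for 2 members (MT1G and SLC30A1) and 1721 genes. There limma-voom called 12 genes, DESeq2 400, and both 0 members.

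Libraries of a treated group and of DMSO did not overlap in 1 of 7 members at 250 µM TCEP, where 10.9% of all genes did not. The count was 2 of 7 at 25 µM TCEP against 22.7% of all genes, 2 of 7 at 25 µM TCIPP against 9.08%, and 2 of 7 at 2.5 µM TCIPP against 16.8%. The members are few, and whether their shares differ from those of all genes was not tested. The median log2 fold change of the 7 members was -0.03, -0.14, -0.14 and 0.04 in that order, and over all genes it was 0.00 in each.

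**Figure D3:**
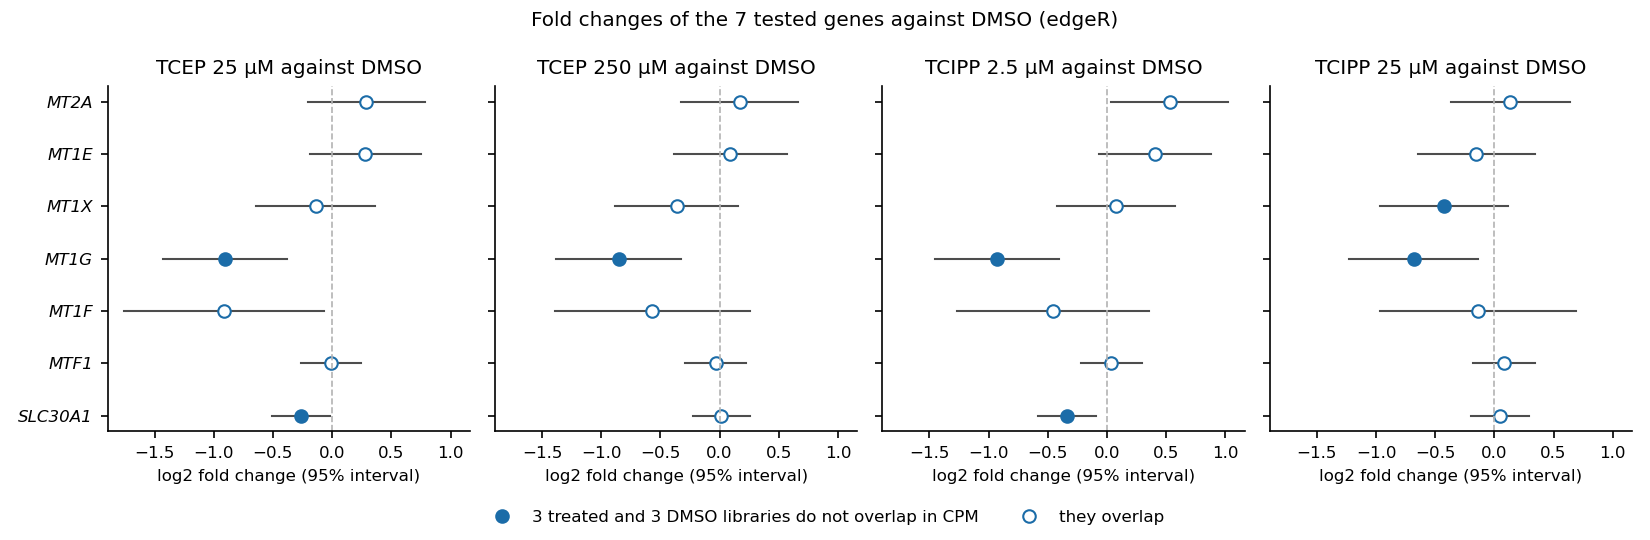
Log2 fold changes of the 7 tested members against DMSO (horizontal axis, points) with 95% intervals (lines) from edgeR; filled points mark members whose 3 treated and 3 DMSO libraries do not overlap in CPM. MT1G is negative with non-overlapping libraries in all 4 panels, and none of the plotted values passed after adjustment.

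The step from the low to the high concentration asks what more of each compound did. For TCIPP the numbers of the replicates paired the libraries: libraries with the same number deviated together from their group means (correlations of 0.277 to 0.297 over genes). In same-numbered cultures MT1E at 25 µM was 0.667, 0.686 and 0.711 times its level at 2.5 µM. SLC30A1 was 1.30, 1.28 and 1.35 times its level, and MT2A was 0.864, 0.727 and 0.745 times. MT1E and MT2A were thus lower, and SLC30A1 higher, in 3 of 3 pairs. MT1X (0.936, 0.475 and 0.808 times) was also lower and MT1F (1.14, 1.04 and 1.29 times) also higher in 3 of 3, though neither was called in either fit.

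The fit with the replicate number held all 15 libraries. The same replicate effects were thus fitted to DMSO, although the numbers were not taken to pair DMSO with treated libraries. With the replicate number in the edgeR fit, MT1E fell by 0.54 ± 0.0871 (log2, SE) from 2.5 to 25 µM TCIPP, with an adjusted p of 0.00229. SLC30A1 rose by 0.39 ± 0.068 (0.00388), and MT2A fell by 0.38 ± 0.0985 (0.0415). That made 3 of 7 members called, where the fit called 3.85% of all genes. Whether the members exceed that share was not tested. MT2A and MT1E are not separate counts, since they varied together (Pearson r of 0.92, and 0.74 with group and replicate means removed). Without the number in the fit 0 of 7 members and 0 genes (0.0%) were called, with adjusted p-values of 0.394, 0.252 and 0.579 for MT1E, SLC30A1 and MT2A. At an unadjusted p under 0.05 that fit had 2 members and 1358 genes, and limma-voom called 0 genes and DESeq2 72, none of them a member. Leaving out 1 library at a time from the fit with the replicate number kept the calls of MT1E and SLC30A1 in 6 of 6 fits, and that of MT2A in 1 of 6, the fit without TCIPP at 2.5 µM, replicate 1. Without regard to pairs, the groups did not overlap in 0 of 7 members and in 12.4% of all genes. The groups also differed in mean intron share of gene reads. It was 8.104% at 2.5 µM (7.82% to 8.67%) and 8.998% at 25 µM (8.604% to 9.56%). The part of intron share in these calls was not tested.

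For TCEP the step from 25 to 250 µM called 0 of 7 members, as it did 0 genes in all (0.0%), 14 genes with DESeq2 (0 members) and 0 with limma-voom. Unadjusted p-values under 0.05 were found for 1 member, SLC30A1, and for 900 genes. The replicate numbers paired these libraries too (correlations of 0.197 to 0.286), and with the number in the fit 1.47% of all genes but 0 of 7 members were called. SLC30A1 stood at 1.29, 1.14 and 1.20 times its level in the same-numbered cultures (log2 fold change 0.27, interval 0.13 to 0.41, edgeR adjusted p = 0.0505). MT1E stood at 0.937, 0.865 and 0.849 times (-0.19, interval -0.36 to -0.01, adjusted p = 0.340). MT1F, not called either, was higher in 3 of 3 pairs, at 1.02, 1.78 and 1.32 times. The groups did not overlap in 0 of 7 members and in 15% of all genes. Whether the steps of TCEP and TCIPP differ was not tested.

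The compounds share 1 concentration, 25 µM, and so form 1 pair at matched dose and time. Without the replicate number, TCIPP against TCEP called 0 of 7 members and 5 genes (0.0398%). An unadjusted p under 0.05 was reached by 1 member, SLC30A1, and 2278 genes, and limma-voom called 4 genes and DESeq2 334, with 0 members each. The libraries were paired here as well (correlations of 0.177 to 0.272). With the number in the fit MT1E was lower with TCIPP by a log2 value of -0.42 (interval -0.60 to -0.23, edgeR adjusted p = 0.00824). SLC30A1 was higher by 0.31 (0.16 to 0.45, adjusted p = 0.0112). Both held in 3 of 3 pairs, MT1E at 0.706, 0.726 and 0.804 times and SLC30A1 at 1.24, 1.12 and 1.32 times the level with TCEP.

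These 2 of 7 members stand beside 8.75% of all genes called in that fit, and whether the members exceed that share was not tested. Leaving out 1 library at a time kept the call of MT1E in 5 of 6 fits, all but without TCIPP at 25 µM, replicate 1. The call of SLC30A1 was kept in 2 of 6, and lost without replicate 1 or 3 of either group. For the other members the difference between the compounds was not called. Of these, MT2A was lower (0.973, 0.927 and 0.829 times) and MT1F higher (1.78, 1.39 and 1.64 times) with TCIPP in 3 of 3 pairs. Its interval was -0.36 to 0.06 for MT2A, -0.71 to 0.23 for MT1X, -0.39 to 0.81 for MT1G, 0.01 to 1.49 for MT1F and -0.16 to 0.33 for MTF1 in the paired fit. The groups did not overlap in 0 of 7 members and in 20.2% of all genes. Both compounds were 25 µM here, which is the low concentration of TCEP and the high one of TCIPP. Intron reads averaged 8.235% of gene reads with TCEP (8.055% to 8.587%) and 8.998% with TCIPP (8.604% to 9.56%). Whether this difference bears on the calls was not tested.

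**Figure D4:**
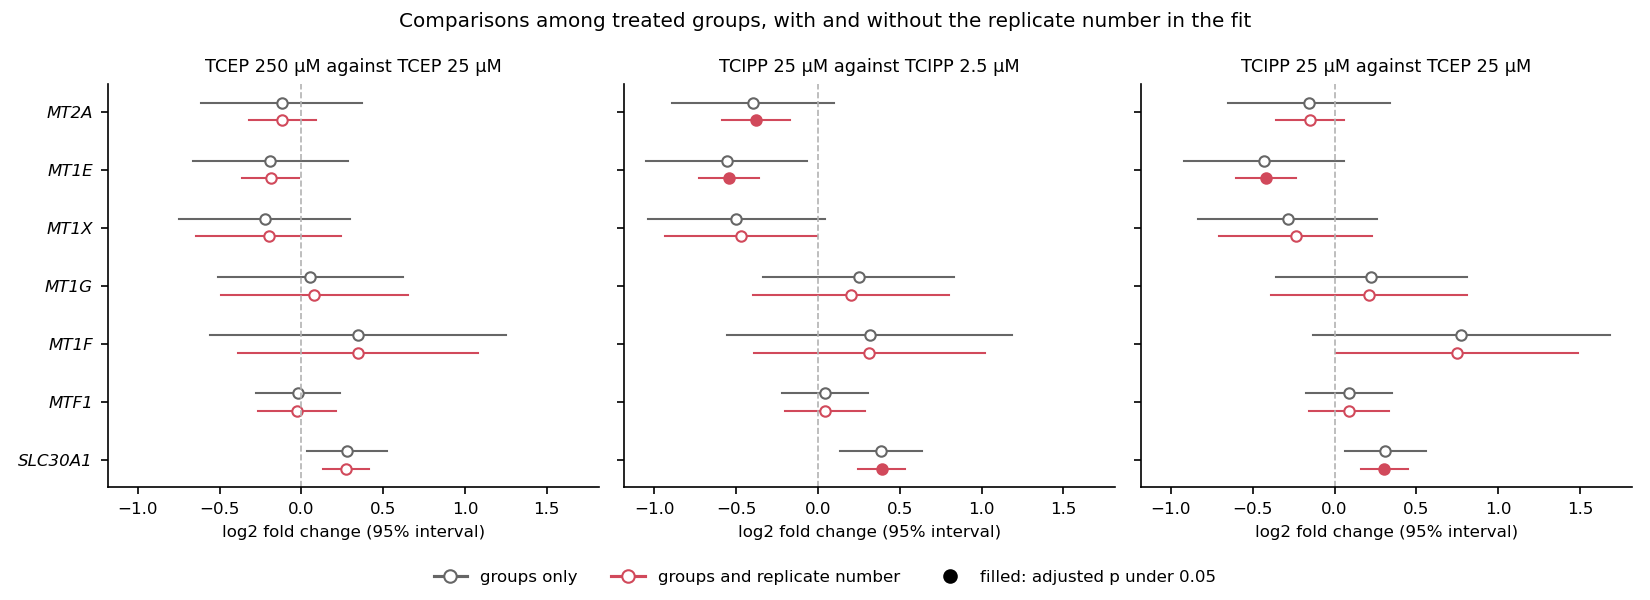
Log2 fold changes (horizontal axis) of the 7 tested members in the 3 comparisons among treated groups, with 95% intervals from edgeR; grey is the fit on groups only, red the fit with the replicate number, and filled points passed an adjusted p under 0.05. The red intervals are shorter for MT2A, MT1E and SLC30A1, and all 5 filled points are red.

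The replicate number itself separated the libraries in several of these genes. This comparison was added after the order of the MT2A libraries had been seen. Over the 5 groups MT2A averaged 93.2 ± 5.56 CPM in replicate 1, 151 ± 25.5 in replicate 2 and 119 ± 23.9 in replicate 3 (SD, n = 5). MT1E averaged 31.7 ± 4.57, 51.2 ± 7.67 and 43.1 ± 7.64 CPM in the same order. SLC30A1 averaged 55.9 ± 7.25, 49.7 ± 6.05 and 61.4 ± 8.09 CPM, lowest in replicate 2 and highest in replicate 3.

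In a fit with group and replicate number, 3 of 7 members differed among the numbers, where 14.0% of all genes did. They were MT1E (edgeR adjusted p = 8.0e-05), MT2A (0.000207) and SLC30A1 (0.00475). Whether the members exceed the share of all genes was not tested. Replicate 2 stood above replicate 1 by 0.69 ± 0.0694 (log2, SE) in MT1E and 0.68 ± 0.078 in MT2A, the 2 of 7 members called there, against 8.63% of genes. Replicate 3 stood above replicate 1 by 0.44 and 0.33 in the same 2 members, where 5.32% of genes were called. Between replicates 2 and 3, where 7.79% of genes were called, MT1E and MT2A were higher in replicate 2 by 0.26 and 0.36. SLC30A1 was lower there by a log2 value of -0.30 ± 0.0515 (adjusted p = 0.00306).

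SLC30A1 was the lowest in replicate 2 in 5 of 5 groups. MT1F was the lowest in replicate 2 and the highest in replicate 1 in 4 of 5 groups each, without passing the test (adjusted p = 0.0828). MTF1 differed little by number (0.436). Replicate 2 libraries had 5.35 to 9.05 megareads, replicate 1 7.11 to 10.5 and replicate 3 8.89 to 26.8, and intron reads made up 7.82% to 8.91%, 7.82% to 9.10% and 8.45% to 9.56% of gene reads. By group the intron share averaged 8.897% with DMSO and 8.235% and 8.504% with TCEP at 25 and 250 µM. With TCIPP it averaged 8.104% at 2.5 µM and 8.998% at 25 µM. The part of depth and of intron share in the results was not tested, by replicate number or by group. The labels give no day, plate or lane for a number.

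**Figure D5:**
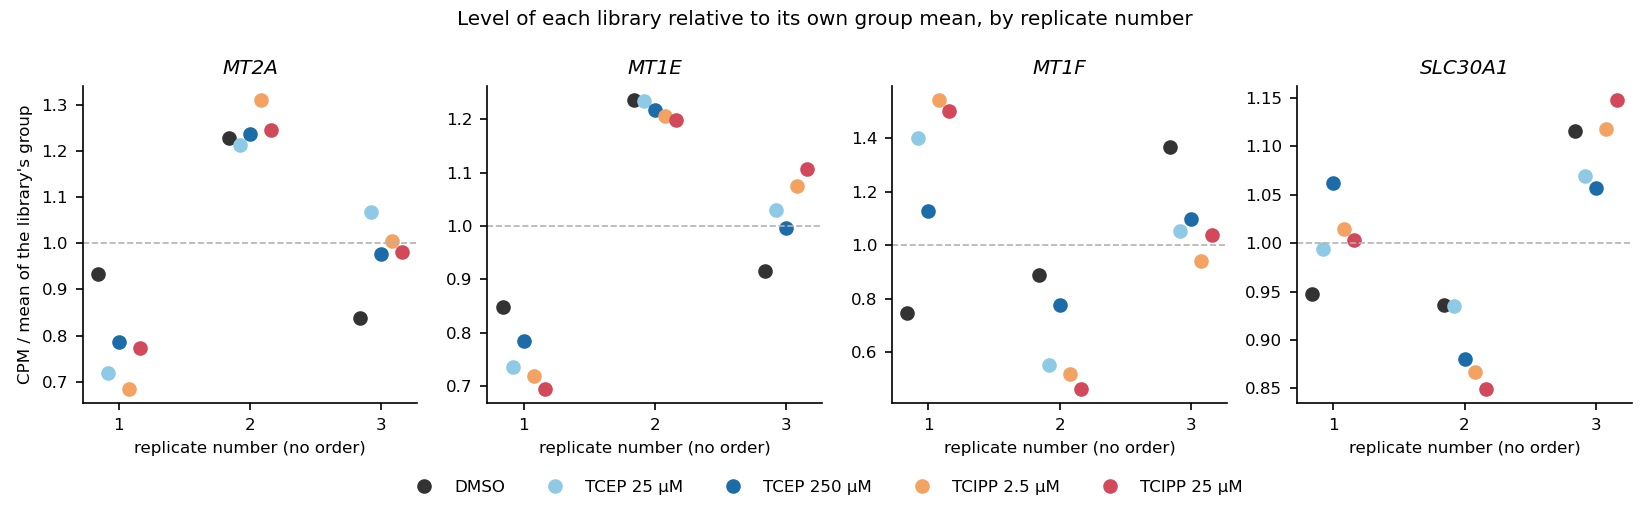
CPM of each library divided by the mean of its own group (vertical axis, 1 is the group mean, axes do not start at 0) by replicate number (horizontal axis) for MT2A, MT1E, MT1F and SLC30A1; each point is 1 library, coloured by group. All 5 libraries of replicate 2 lie above their group mean in MT2A and MT1E and below it in SLC30A1.

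Across the 15 libraries MT2A and MT1E varied together, with a Pearson r of 0.92 and a Spearman rho of 0.94 on log2 CPM (permutation p = 2.0e-05, the smallest that 100000 permutations can give, adjusted over 6 relations to 0.00012). Without the 2 libraries farthest from the median of MT2A, TCIPP at 2.5 µM replicate 2 and TCEP at 25 µM replicate 2, r was 0.89, and with group and replicate means removed it was 0.74. MT1F ran against MT2A (r = -0.79, rho = -0.84, permutation p = 0.00066 and 0.0002, adjusted 0.00198 and 0.0006). That r was -0.71 without the same 2 libraries and -0.75 with both means removed. SLC30A1 had r = -0.64 and rho = -0.61 (permutation p = 0.0101 and 0.0204, adjusted 0.0201 and 0.0407). Its r was -0.37 without those libraries and -0.43 with both means removed. MT1X had r = 0.59 and rho = 0.57 (permutation p = 0.0239 and 0.0287, adjusted 0.0358 and 0.0431). Its r was 0.24 without those libraries and 0.49 with both means removed. Leaving out the libraries farthest in MT2A narrows its range, so these drops cannot show what a relation rests on. MTF1 (r = -0.47, rho = -0.49, adjusted permutation p = 0.0858 and 0.0772) and MT1G (r = -0.33, rho = -0.21, adjusted permutation p = 0.222 and 0.441) had no passing relation. All of these share the libraries, their depth and their replicate numbers. The permutations shuffled all 15 libraries without regard to group or replicate number. Their p-values therefore do not allow for the differences by replicate number found in MT2A, MT1E and SLC30A1, and may be too small.

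The sum of the metallothioneins ran from 123.9 to 268.5 CPM, a 2.17-fold range. Group means of the sum were 156 ± 27.8 CPM in DMSO libraries, 183 ± 45.5 and 167 ± 35.9 on low and high TCEP, and 211 ± 60.2 and 159 ± 34.0 on low and high TCIPP (SD, n = 3). Among genes outside the family with at least 1 CPM, the 5 with the pattern most like the sum over 15 libraries were RP11-381O7.3 (r = 0.94), RINL (0.94), the cytoskeletal actin ACTB (0.94), the Wnt receptor FZD5 (0.92) and the peptide hormone gene ADM (0.92). The 5 most opposed were NT5E, which makes adenosine at the cell surface (-0.93), SMLR1 (-0.93), AC005562.1 (-0.93), the growth factor PGF (-0.91) and FBXO2 (-0.91). SLC30A1 stood at -0.64 and MTF1 at -0.46 by the same measure. Only 45.3% of the exon reads of RP11-381O7.3 and 16.4% of those of AC005562.1 had a unique place in the genome. The named genes are the extremes of 12296 ranked genes, of which 201 had r above 0.8, 14 above 0.9 and 183 below -0.8. These correlations are descriptions of 15 libraries that share replicate numbers, and no p is given for them.

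The other zinc transporters of these cells were given by list. Among the importers, SLC39A14, an importer of zinc and iron that inflammation raises in liver, averaged 117 RPKM, SLC39A7 of the endoplasmic reticulum and Golgi 96.5 and SLC39A1 25.2. SLC39A2 and SLC39A12 had 0 reads. Of 14 importers 11 were tested, and edgeR called 0 in any of the 7 comparisons, the 5-group test or the joint treated contrast. Unadjusted p-values under 0.05 were found for 0 to 4 importers per comparison. Limma-voom called 0 throughout, and DESeq2 called 1 between the compounds at 25 µM, where it called 334 genes in all. With TCEP at 25 µM against DMSO, SLC39A14 had a log2 fold change of -0.59 (edgeR adjusted p = 0.204) and SLC39A10, a plasma membrane importer, 0.34 (0.160). The smallest edgeR adjusted p of the importers was that of SLC39A10 for TCIPP against TCEP at 25 µM (-0.40, 0.0956).

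Of 9 further exporters 6 were tested and 0 were called by edgeR, limma-voom or DESeq2, with an unadjusted p under 0.05 for at most 1 per comparison. SLC30A9 between the compounds at 25 µM had the smallest adjusted p of the exporters (-0.22, 0.145). Their levels were below that of SLC30A1 per length, with SLC30A5 at 8.93 and SLC30A6 at 8.93 RPKM, both of the secretory pathway. All 10 copper genes were tested, and edgeR and limma-voom called 0, with 1 to 3 under an unadjusted p of 0.05 per comparison. DESeq2 called 3 of them between the compounds and in the 5-group test, and 1 with TCEP at 25 µM, beside 334, 400 and 155 genes in all. The copper pump ATP7B (0.38, adjusted p = 0.0756), the copper importer SLC31A1 (0.49, 0.0817) and ceruloplasmin CP (-0.44, 0.0988) had the smallest edgeR adjusted p-values, all for TCIPP against TCEP at 25 µM. Medians of the 3 lists against DMSO stayed between -0.14 and 0.06 on the log2 scale, where that of all genes was 0.00. With the replicate number in the fit, edgeR called 1, 2 and 2 importers, 0, 0 and 1 exporters and 1, 2 and 3 copper genes in the TCEP step, the TCIPP step and the comparison of compounds. Those fits called 1.47%, 3.85% and 8.75% of all genes. The lists are short, and whether they exceed these shares was not tested.

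Glucocorticoid-induced genes were included because these hormones also raise MT2A. Of 8, 7 were tested and 1 was called by edgeR: DUSP1, a phosphatase of the MAP kinases, rose at 2.5 µM TCIPP (log2 fold change 0.73, adjusted p = 0.0312), beside 0.0955% of all genes called. SGK1, a kinase, had -0.50 there (0.0605), and the liver enzyme TAT 0.55 (0.256). FKBP5 had -0.09, KLF9 0.04, PER1 -0.03 and TSC22D3 -0.36 in the same comparison. DUSP1 was also positive against DMSO on low TCEP (0.40), high TCEP (0.28) and high TCIPP (0.53). In that order SGK1 had -0.59, -0.52 and -0.51, and TAT 0.54, 0.67 and 0.55. Limma-voom and DESeq2 called 2 of the 7 at 2.5 µM TCIPP, and 3 had an unadjusted p under 0.05. In each of the other comparisons edgeR called 0 of these 7 and limma-voom 0, with 0 to 5 under an unadjusted p of 0.05, and DESeq2 called 0 to 2. With the replicate number in the fit 1 was called between the compounds and 0 in either step.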

How the data were processed

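RNA of 15 HepG2 libraries was analysed from the gene tables of the authors, who used CLC Genomics Workbench (stated in the design text) with the build hg19 (GRCh37), per the submitters' processing notes. The deposited tables give whole-number read counts per gene (total and unique exon reads, total gene reads), per the file headers. They also give deposited RPKM values, exon reads per kilobase and megaread. For 100% of genes with exon reads, the deposited RPKM was the exon reads per kilobase over a scale constant within the library (relative tolerance 0.001). That scale, taken from the deposited values, was 1.08 to 1.11 times the library's total of exon reads. Use of the strand in counting was not given in the sources used. The authors' deposited quantile-normalized values were not used here, since they were made in separate sets of libraries.

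Groups and replicate numbers came from the sample titles. Total exon reads were tested in R 4.3.3 by the quasi-likelihood test of edgeR 4.0.16 after TMM scaling and edgeR's filter on low counts, with all 15 libraries in 1 fit. P-values were adjusted by Benjamini-Hochberg over 12567 genes, and called at an adjusted p under 0.05. The script was tested on simulated data. Levels are TMM-scaled CPM, and SEs are log2 fold changes over the root of the F statistic. There were 7 comparisons and a test over the 5 groups. Alternatives were unique exon reads, total gene reads, no TMM factor, DESeq2 1.42.0, limma-voom (limma 3.58.1), no filter, only the groups compared, the replicate number as a block, and each library left out. DESeq2 gave no adjusted p for 1462 to 8527 of the 12567 genes by comparison. Such genes were counted as not called, so a DESeq2 count of 0 members can include members without an adjusted p. Permutation tests used scipy 1.17.1.

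The replicate numbers were taken to pair libraries where every same-number pair deviated together from the group means with a correlation over 0.1. This held for the 3 comparisons among treated groups, and not with DMSO, where the lowest correlation was 0.0164 to 0.0891. Such pairing comes from the data and not from a statement in the labels. The fit with the replicate number nevertheless held DMSO, so its SEs also rest on replicate effects shared with the DMSO libraries.

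All 9 members were described by rule, with the 5 genes most like and most unlike the summed metallothionein CPM, and up to 3 genes per list with the smallest p, of which a few are named. The members and lists were chosen with earlier results of these data known. The contrast of all treated groups, the comparison of replicate numbers and the alternatives of the paired fits were added after values had been seen. Reads carry no molecular identifiers, so the level of 3 reads covers counting error only. Gene starts were moved by 1 base, because 86.4% of genes with an equal end began 1 base before the annotated start. For MT1A, MT1E, MT1F, MT1G and MT1M no promoter window is printed.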

Additional observations from a re-analysis of the deposited data

How the results depend on the processing

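The side of the threshold on which the members fell depended on the filter and on the replicate number. Genes without a DESeq2 adjusted p were counted as not called. Counted against 0 in the fits reported, every alternative not named next and tried on the fits without the replicate number (unique exon reads, total gene reads, no TMM factor, DESeq2, limma-voom, only the groups compared, each library left out) also called 0 members. With no filter on low counts edgeR called 4 members at 2.5 µM TCIPP against DMSO (MT1E, MT1G, MT2A and SLC30A1), 3 in the TCIPP step and 3 among the 5 groups (MT1E, MT2A and SLC30A1), 1 between the compounds (MT1E) and 1 in the joint treated contrast (MT1G). With the replicate block it called 4 (the same names) at 2.5 µM TCIPP, 3 at 25 µM TCEP (MT1E, MT1G and SLC30A1), 3 among the 5 groups, 3 in the TCIPP step, 2 between the compounds and 1 (MT1G) in the joint contrast. With no filter edgeR called 553 genes in all at 2.5 µM TCIPP against DMSO, 990 among the 5 groups, 756 between the compounds, 345 in the TCIPP step and 354 in the joint contrast, against 12, 12, 5, 0 and 0 reported. The fit with no filter held all 9 members and genes with few reads, so these counts are not shares of 12567. Over all genes the block moved the calls against DMSO from 0 to 1037 (8.25%) with 25 µM TCEP. With 250 µM TCEP they moved from 0 to 34 (0.271%). With TCIPP they moved from 1 to 47 (0.374%) at 25 µM and from 12 to 941 (7.49%) at 2.5 µM. The block called 1107 of 12567 genes in the 5-group test and 568 in the joint contrast. These calls arose although the numbers were not taken to pair DMSO with treated libraries. A call gained or lost by the block is therefore no sign of a stronger or weaker effect. At 2.5 µM TCIPP against DMSO, MT2A had 0.53 ± 0.234 (log2, SE) without the block and 0.51 ± 0.0975 with it. In the same order MT1E had 0.41 ± 0.224 and 0.41 ± 0.0831, and MT1G -0.93 ± 0.249 and -0.90 ± 0.246. What lies behind the replicate numbers was not tested. In the fit with the replicate number, the TCEP step called 1 member (SLC30A1) with unique exon reads, 1 with no TMM factor and 1 with no filter, where the reported count is 0. These 3 fits called 231, 184 and 470 genes in all. Leaving out 1 library gave 0 to 2 members between the compounds and 2 to 3 in the TCIPP step in that fit. For the replicate number itself it gave 3 to 4, where 3 is the reported count and 4 the count with no filter.

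Of 1092 alternative values of 77 fold changes, 1005 kept both direction and side of the threshold, 52 changed sign, 25 came to pass and 10 ceased to pass. No value that changed sign was called, and their adjusted p-values were at least 0.713. The sign changed with unique exon reads in MT1X at 2.5 µM TCIPP against DMSO (-0.028), and with total gene reads in MTF1 at 25 and 250 µM TCEP (0.032 and 0.0032). The other sign changes came with 1 library left out, where the log2 fold change spanned 0. TCEP 250 µM against DMSO gave -0.049 to 0.26 in MT1E, -7.3e-05 to 0.34 in MT2A, -0.053 to 0.011 in MTF1 and -0.032 to 0.11 in SLC30A1. TCIPP 25 µM against DMSO gave -0.29 to 0.066 in MT1E, -0.53 to 0.23 in MT1F, -0.047 to 0.30 in MT2A, -0.065 to 0.16 in MTF1 and -0.067 to 0.14 in SLC30A1. TCIPP 25 µM against TCIPP 2.5 µM gave -0.082 to 0.60 in MT1F, -0.12 to 0.49 in MT1G and -0.10 to 0.12 in MTF1. TCEP 250 µM against TCEP 25 µM gave -0.029 to 0.17 in MT1G, -0.43 to 0.11 in MT1X, -0.31 to 0.038 in MT2A and -0.049 to 0.030 in MTF1. TCEP 250 µM against TCEP 25 µM in the fit with the number gave -0.10 to 0.22 in MT1G, -0.35 to 0.039 in MT1X and -0.090 to 0.022 in MTF1. TCIPP 25 µM against TCEP 25 µM gave -0.14 to 0.47 in MT1G, -0.49 to 0.044 in MT1X, -0.35 to 0.0018 in MT2A and -0.057 to 0.17 in MTF1. TCIPP 25 µM against TCEP 25 µM in the fit with the number gave -0.13 to 0.46 in MT1G and -0.075 to 0.18 in MTF1. TCIPP 25 µM against TCIPP 2.5 µM in the fit with the number gave -0.14 to 0.49 in MT1G and -0.13 to 0.13 in MTF1. TCEP 25 µM against DMSO gave -0.47 to 0.066 in MT1X and -0.060 to 0.033 in MTF1. TCIPP 2.5 µM against DMSO gave -0.12 to 0.22 in MT1X and -0.031 to 0.12 in MTF1. All 4 treated groups against DMSO gave -0.017 to 0.061 in MTF1.

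Depth limits the minor forms: MT1F had as few as 5 reads and MT1G 12 in a library, and MT1A and MT1M could not be tested.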
